A study of Dugesia japonica with 16 samples.

Results

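A set of 140 assembly components of the freshwater planarian *Dugesia japonica*, among 16873 in all, stood higher with the lipid mediators PCTR3 and RCTR3 than with vehicle 48 h after the head was removed. A component is the group of assembled transcripts that share an identifier up to the sequence number, and its level here is the sum of their TPM, a transcript abundance corrected for length and scaled to the whole library. The members were chosen by these same values. The vehicle mean had to be at least 1 TPM, and the mean of log2(TPM sum + 1) with PCTR3 and with RCTR3 each had to lie at least 0.8 above the vehicle mean. All 8 libraries of those groups had to lie above all 4 vehicle libraries. Finally, at least 1 MCTR3 library had to lie no higher than the highest vehicle library. The rises against vehicle are therefore a description of what was selected and are not tested here.

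The study compared 4 groups of 4 libraries, made from the posterior pieces of worms starved for 7 days and cut behind the eyes. The pieces regenerated at 20 °C in water holding MCTR3, PCTR3 or RCTR3 at 10 nM, or 0.1% ethanol as vehicle. How much ethanol the compound groups held and how many worms went into a library is not given. No label says that libraries of a group came from separate cultures, so the p-values below rest on a spread among libraries that could be technical. In the submitters' numbering, vehicle and MCTR3 occupy 1 to 8 while PCTR3 and RCTR3 occupy 9 to 16, so treatment and place in the numbering cannot be told apart between these sides. The read depth behind each value is unknown, because TPM keeps none. The deposited values of a library sum to between 926.1 and 1129 kTPM, and these sums followed treatment. Mean sums were 953 kTPM for RCTR3, 974 for PCTR3, 1013 for MCTR3 and 1065 for vehicle. No PCTR3 or RCTR3 sum exceeded 992.1 kTPM and no vehicle sum was under 1028.5 kTPM, with all MCTR3 sums between these values. The origin of this difference in scale is unknown.

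Planarians rebuild a missing head from neoblasts, the adult stem cells that also supply every other tissue of the animal, while wound signalling and muscle-borne position signals direct what is rebuilt. MCTR3, PCTR3 and RCTR3 each carry a cysteinyl group and belong, in that order, to the maresin, protectin and resolvin families. Human immune cells make such conjugates from docosahexaenoic acid, an omega-3 fatty acid, and they are known for promoting the resolution of inflammation and tissue repair. The deposited table gives assembler identifiers without gene names, so no function can be given to a member, and components are named by identifier. In RNA from whole pieces, more cells of a type and more RNA per cell cannot be told apart.

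Of the 15307 components with a vehicle mean of at least 1 TPM, 222 reached the required rise with PCTR3 and 183 of these with RCTR3 as well. The libraries of 167 did not overlap with vehicle. In 27 of these all 4 MCTR3 libraries also lay above vehicle, which left the 140 members. The mirror image, a fall of the same size with PCTR3 and RCTR3 and no overlap with vehicle, was met by 44 components. The edge of the set is not a natural gap: 36 members had a smaller rise within 0.05 above the limit, and 35 components that met every other condition lay within 0.05 below it. The lower of the PCTR3 and RCTR3 rises was 0.802, 0.803 and 0.805 in the members closest to the limit, and 0.7995, 0.7985 and 0.7965 in the closest components left out.

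The members were mostly of low to moderate abundance. Their vehicle means ran from 1.05 to 329.6 TPM, with a median of 6.39 TPM against 16.8 TPM over all components with at least 1 TPM in vehicle. In vehicle, 57 members lay under 5 TPM, 63 from 5 to under 20 TPM, 17 from 20 to under 100 TPM, and 3 at 100 TPM or more. All components with at least 1 TPM in vehicle had 10.5% in that highest class, against 2.14% of the members. A single transcript made up 89 of the 140 members (63.6%, against 54.5% of the components tested), and the largest member held 26 transcripts. No member was at 0 in any library.

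Together the members took up a small part of the transcriptome, which was larger with PCTR3 and RCTR3. Their summed TPM was 2139, 1953, 2096 and 1522 in vehicle replicates 1 to 4 and 2540, 2266, 2163 and 2172 with MCTR3. It was 4102, 4994, 3385 and 3676 with PCTR3, and 4920, 4212, 3684 and 4047 with RCTR3. The lowest PCTR3 or RCTR3 library thus held more than the highest MCTR3 library, and the lowest MCTR3 library more than the highest vehicle library. The rule fixed the order of PCTR3 and RCTR3 against vehicle. Between MCTR3 and vehicle the margin was narrow, 2163 against 2139 TPM, in components chosen by their low vehicle values, so nothing is read from it. As a share of all TPM the members held 0.182% ± 0.0323 in vehicle and 0.226% ± 0.0191 with MCTR3 (SD, n = 4). For PCTR3 the share was 0.415% ± 0.0763, and for RCTR3 it was 0.443% ± 0.0555 (SD, n = 4).

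**Figure D1:**
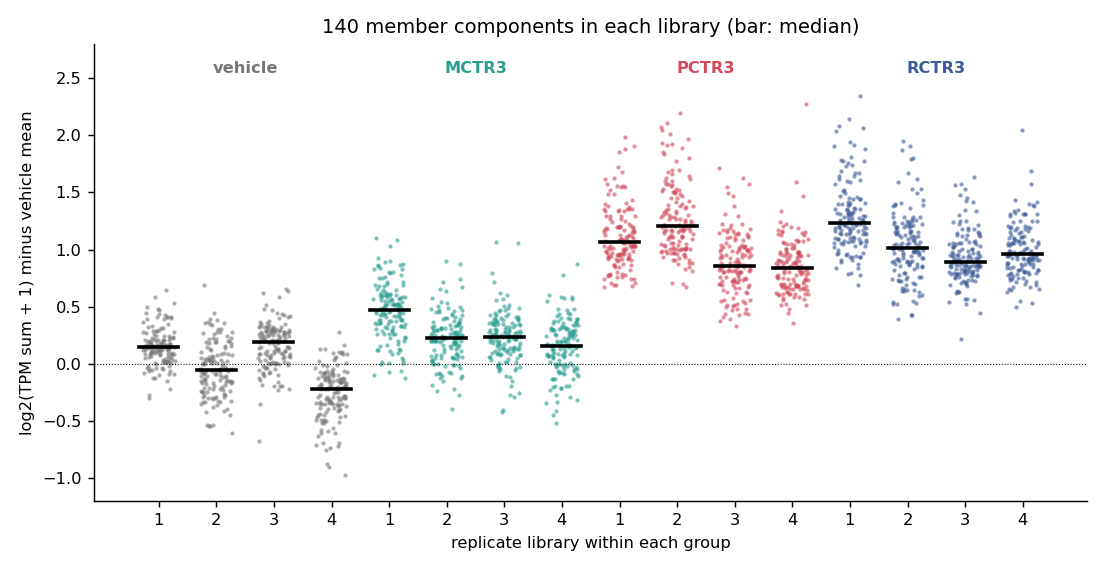
Each point is 1 of the 140 members in 1 library, as log2(TPM sum + 1) minus the member's vehicle mean (y axis), for replicates 1 to 4 of each group (x axis), and black bars are medians over members. The MCTR3 medians lie slightly above 0 and the PCTR3 and RCTR3 medians lie near 1, and within each group some libraries are higher for most members.

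Few of the rises were large, and the rule set their lower limit. The median rise of log2(TPM sum + 1) was 0.97 with PCTR3 and 1.03 with RCTR3, against 0.01 for each over the 15762 components tested. In linear terms the group mean was between 1.79 and 4.56 times the vehicle mean with PCTR3 and between 1.79 and 5.55 times with RCTR3, with medians of 2.21 and 2.25. For both compounds it was at least 2 times in 100 members and at least 3 times in 7. All 140 members passed limma's threshold of an adjusted p of 0.05 with PCTR3 and with RCTR3, as higher than vehicle. Among all tested components, 19.2% were called higher and 20.1% lower with PCTR3, and 21.7% higher and 23.0% lower with RCTR3. The same values chose the members, so nothing is read from that count.

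The member with the largest mean rise, comp144303_c2, consists of 1 transcript. It stood at 8.93, 6.29, 10.2 and 7.73 TPM in the vehicle libraries, at 12.2, 10.9, 11.3 and 9.03 TPM with MCTR3, at 35.3, 40.9, 29.1 and 26.7 TPM with PCTR3, and at 39.7, 30.7, 26.2 and 28.6 TPM with RCTR3. The PCTR3 and RCTR3 libraries overlapped with each other and lay far above all others, while 3 of the 4 MCTR3 libraries lay just above the highest vehicle library. The log2 rise was 1.87 with PCTR3 and 1.80 with RCTR3, and the lowest of these 8 libraries stood 1.28 above the highest vehicle library on that scale, the widest gap in the set (median gap 0.41).

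The most abundant member, comp135925_c1, has 5 transcripts and stood apart from the others in level, not in rise. Its vehicle libraries held 339, 373, 340.2 and 266 TPM, and its MCTR3 libraries 347, 335, 301 and 346 TPM. With PCTR3 it held 599.8, 733, 430.3 and 604 TPM, and with RCTR3 685, 872, 579 and 730.2 TPM. The MCTR3 libraries all lay within the vehicle range, and its log2 rise was 0.83 with PCTR3 and 1.11 with RCTR3.

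**Figure D2:**
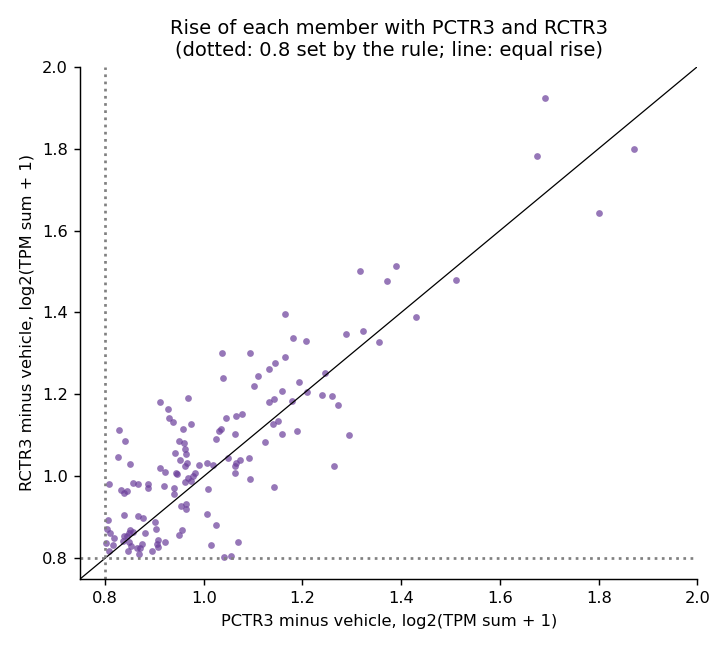
Each point is 1 of the 140 members, with its rise over vehicle with PCTR3 (x axis) and with RCTR3 (y axis), both as differences in mean log2(TPM sum + 1). Dotted lines mark the 0.8 that the rule required, and most members lie close to the line of equal rise, with 4 members above 1.5 on both axes. Both rises share the same vehicle libraries.

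The rule set MCTR3 a different condition from PCTR3 and RCTR3, which had to meet the same conditions against vehicle. PCTR3 and RCTR3 were given at the same dose for the same time, and the rule did not compare them with each other directly. The compounds come from different pathways and differ in the carbons that carry their hydroxyl and cysteinyl groups, and RCTR3 has an additional hydroxyl group. No member differed between them (limma, 0 of 140 at an adjusted p under 0.05, smallest adjusted p = 0.9995), and no component of the 15762 tested did (0%). At an unadjusted p under 0.05 there was 1 member, against 477 components in all (3.03%). The 95% interval of the difference lay within 1.5-fold in 120 of the 140 members (85.7%, against 95.3% of all tested components). It lay within 2-fold in all 140 (99.7% of all tested components), so a difference under these sizes is not excluded. These folds are of the TPM sum + 1, which understates the fold of the TPM sum in low components. The rule required a rise of at least 0.8 with both compounds, which limits how far apart members could lie. In 0 members did the PCTR3 and RCTR3 libraries fall into separate ranges, against 1.87% of all components tested.

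The mean was higher with RCTR3 than with PCTR3 in 89 of the 140 members, against 48.5% of all tested components. The difference was small, with a median of -0.03 on the log2(TPM sum + 1) scale (PCTR3 minus RCTR3), and for 124 members its size was under 0.2. After rescaling every library to a common TPM sum, RCTR3 was higher in 100 members and in 62.7% of all tested components. That median was 0.01 among the members without PCTR3 replicate 3, without PCTR3 replicate 4 or without RCTR3 replicate 1 when the rule was applied again, so its sign rests on single libraries.

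The 4 members named here, those with the 2 lowest p in each direction, all had overlapping PCTR3 and RCTR3 libraries. comp140958_c0 held 4.57, 3.81, 3.78 and 3.96 TPM in vehicle and 4.89, 4.49, 5.37 and 4.22 TPM with MCTR3. It held 8.77, 9.36, 6.50 and 7.59 TPM with PCTR3 and 11.1, 9.36, 9.96 and 8.41 TPM with RCTR3. RCTR3 had the highest library and PCTR3 the lowest, and the log2 difference was -0.25 (SE 0.11, limma adjusted p = 0.9995, unadjusted p = 0.033). It was -0.16 without PCTR3 replicate 3. For comp135925_c1, whose libraries are given above, the difference was -0.29 (SE 0.14, limma adjusted p = 0.9995). It was -0.14 without PCTR3 replicate 3 and -0.19 without RCTR3 replicate 2. On the other side, comp122143_c1 held 30.3, 26.4, 22.1 and 23.4 TPM in vehicle and 33.2, 32.9, 26.4 and 30.3 TPM with MCTR3. It held 67.4, 76.4, 48.3 and 60.8 TPM with PCTR3 and 81.4, 37.6, 46.4 and 54.0 TPM with RCTR3. Its difference of 0.24 (SE 0.18, limma adjusted p = 0.9995) came although the highest and the lowest of these 8 libraries were both RCTR3 libraries. The difference was 0.45 without RCTR3 replicate 1, 0.36 without PCTR3 replicate 3, 0.14 without PCTR3 replicate 2 and 0.08 without RCTR3 replicate 2.

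The low-abundance member comp144794_c5 held 2.49, 1.29, 2.12 and 1.505 TPM in vehicle and 2.83, 2.24, 1.53 and 1.45 TPM with MCTR3. It held 6.12, 6.07, 4.18 and 3.29 TPM with PCTR3 and 4.89, 2.68, 3.84 and 4.52 TPM with RCTR3. The difference was 0.24 (SE 0.20, limma adjusted p = 0.9995), and the lowest of these 8 libraries, an RCTR3 library, lay just above the highest vehicle library. The difference was 0.10 without RCTR3 replicate 2, 0.14 without PCTR3 replicate 1 or without PCTR3 replicate 2, and 0.38 without PCTR3 replicate 4.

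**Figure D3:**
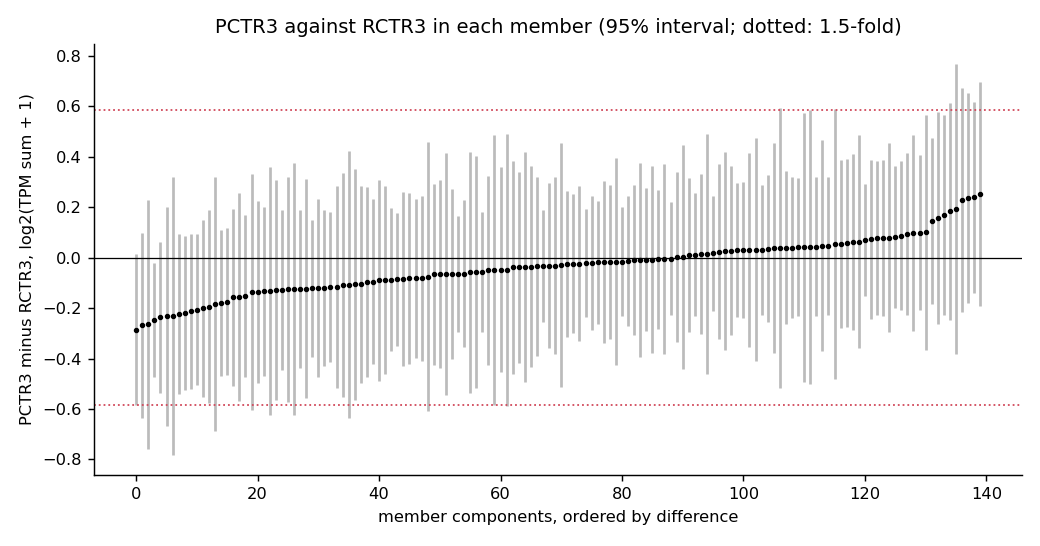
Points give the PCTR3 minus RCTR3 difference in mean log2(TPM sum + 1) for each of the 140 members (y axis), in order of the difference (x axis), with 95% intervals from the limma fit as grey lines and 1.5-fold of the TPM sum + 1 as dotted lines. The points run from -0.29 to 0.25, and all intervals but 1 cross 0.

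The rule left out components in which all 4 MCTR3 libraries lay above vehicle (0 members, against 2.84% of all tested components), and it used the vehicle and MCTR3 libraries, so the MCTR3 values are a description. The MCTR3 mean of log2(TPM sum + 1) lay above the vehicle mean in 137 of the 140 members, against 48.8% of all tested components. The median MCTR3 difference from vehicle was 0.27, against -0.00 over all tested components, and the largest was 0.67. In each member it was smaller than the rise with PCTR3 and with RCTR3. Expressed as a position between vehicle (0) and the mean of PCTR3 and RCTR3 (1), MCTR3 had a median of 0.26, with an interquartile range of 0.18 to 0.33. The rule thus did not require members to stay at the vehicle level with MCTR3, although 13 members had 0 MCTR3 libraries above the highest vehicle library. Choosing components with low vehicle values raises every other group against vehicle, and the members move together between libraries, so these values do not show whether MCTR3 changed the members.

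No member passed limma's threshold between MCTR3 and vehicle (0 of 140, smallest adjusted p = 0.51), and neither did any tested component (0%). At an unadjusted p under 0.05, 40 members stood higher with MCTR3, against 3.99% of all tested components, and 0 stood lower (9.57% of all tested components in either direction). In either direction, 14 members reached that p without MCTR3 replicate 1, against 877 of the 15762 tested components. Without vehicle replicate 4 it was 18 members against 640 components, and without vehicle replicate 2 it was 28 against 1727. With all libraries it was 40 against 1509. Of the members, 13 had 0 MCTR3 libraries above the highest vehicle library, 47 had 1, 40 had 2 and 40 had 3. MCTR3 replicate 1 was above it in 107 members, replicate 2 in 51, replicate 3 in 53 and replicate 4 in 36. By library the median position was 0.45 for MCTR3 replicate 1 and 0.21, 0.21 and 0.17 for the others. For the same members it was 0.21 without MCTR3 replicate 1 and 0.18 without vehicle replicate 4.

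The 27 components with the same rise in which every MCTR3 library lay above vehicle had a median MCTR3 difference of 0.36 and a median position of 0.37. Their median vehicle mean was 11.8 TPM, against 6.39 TPM in the members. The replicate spread was narrower there in vehicle and MCTR3, the groups that the split used. The median SD of log2(TPM sum + 1) was 0.17 in vehicle and 0.11 with MCTR3, against 0.27 and 0.22 in the 140 members. With PCTR3 it was 0.24 against 0.25, and with RCTR3 0.22 against 0.23. The split between these sets was made on the overlap of libraries, which spread alone can change, and it was not tested whether their MCTR3 responses differ.

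Against PCTR3, 132 of the 140 members were lower with MCTR3, and against RCTR3, 134 (limma, adjusted p under 0.05). Among all tested components, 9.48% were called lower and 9.45% higher with MCTR3 than with PCTR3, and 13.5% lower and 14.3% higher than with RCTR3. The rule used all these groups, and nothing is read from these counts. Every PCTR3 and RCTR3 library lay above every MCTR3 library in 107 members, against 7.70% of all tested components. Without PCTR3 replicate 2, 98 members passed against PCTR3, the lowest number with any 1 library left out.

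The extremes of the MCTR3 difference show both ends of the set. In comp140641_c2, which had the lowest, the vehicle libraries held 1.98, 1.78, 1.57 and 1.57 TPM and the MCTR3 libraries 2.47, 1.57, 1.06 and 1.33 TPM. MCTR3 here lay on both sides of the vehicle range, with a log2 difference of -0.09 (SE 0.16, limma adjusted p = 0.85). The PCTR3 libraries held 4.15, 4.58, 3.61 and 3.16 TPM and the RCTR3 libraries 5.24, 4.77, 2.95 and 4.63 TPM, all above the other groups.

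In comp127757_c1, which had the highest MCTR3 difference, the vehicle libraries held 11.8, 6.56, 8.44 and 5.78 TPM and the MCTR3 libraries 14.8, 13.6, 14.4 and 10.4 TPM. Only MCTR3 replicate 4 lay below the highest vehicle library, and the log2 difference was 0.67 (SE 0.20, limma adjusted p = 0.51). The PCTR3 libraries held 27.4, 32.9, 21.0 and 41.9 TPM and the RCTR3 libraries 31.6, 29.9, 23.7 and 22.7 TPM. All of these lay above the MCTR3 libraries.

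**Figure D4:**
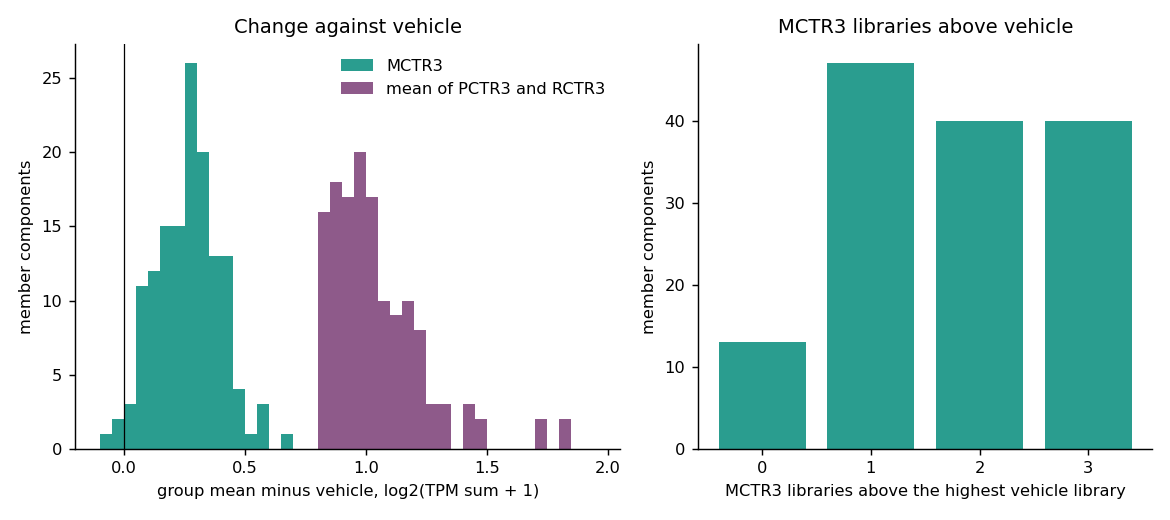
The left panel counts members (y axis) by the difference of the MCTR3 mean, and of the mean of PCTR3 and RCTR3, from vehicle in log2(TPM sum + 1) (x axis). The right panel counts members by how many MCTR3 libraries lay above the highest vehicle library, with 13 members at 0 and 40 at 3. Nearly the whole MCTR3 distribution lies to the right of 0 and all of it lies below 0.8.

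Members moved together between replicate libraries of the same group, a pattern that the rule did not ask for, although the group means it used contain it. Vehicle replicate 4 was the lowest of its group in 83 of the 140 members, against 29.6% of all tested components, and replicate 3 was the highest in 63. MCTR3 replicate 1 was the highest of its group in 91 members (29.2% of all tested components). PCTR3 replicate 2 was the highest in 88 (30.2%), and RCTR3 replicate 1 in 99 (28.5%). The members' median deviation from their group mean on the log2 scale was -0.22 in vehicle replicate 4 and 0.19 in vehicle replicate 3. It spanned -0.12 to 0.21 in the MCTR3 group, -0.18 to 0.23 in the PCTR3 group and -0.12 to 0.23 in the RCTR3 group. Over all tested components the median deviation of every library lay between -0.02 and 0.03. The members are therefore not independent measurements of a treatment, and the spread between libraries was large in them: the median SD of log2(TPM sum + 1) within PCTR3 was 0.25, against 0.13 over all tested components, whose levels are higher.

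The transcripts of a member make up the sum that the rule selected, so their counts are a description. Of the 51 members with 2 or more transcripts, 42 held at least 2 with a mean of at least 1 TPM over the 16 libraries, 126 transcripts in all. Of these, 116 had a higher mean log2(TPM + 1) with both PCTR3 and RCTR3 than with vehicle, and 4 had a lower one. Among the transcripts of all tested components counted the same way, 47.8% had a higher one. All PCTR3 and RCTR3 libraries lay above all vehicle libraries for 56 of the 126 transcripts and below them for 0, against 8.67% and 7.36% of the transcripts of all tested components. In 34 members every counted transcript was higher with both. The transcript with the largest gain carried a median of 55.3% of the gain of its component, from 26.7% to 106%, where more than the whole gain means that other transcripts lost.

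The transcript with the highest group mean was not always the same in vehicle, PCTR3 and RCTR3. The leading transcript of vehicle also led with PCTR3 and RCTR3 in 33 of the 42 members, and in 6 another transcript led with both compounds. A change of leading transcript was not counted over all components, so these counts have no background and no effect of treatment is read from them. The share of the transcript with the highest mean over all libraries moved by over 10 percentage points between vehicle and the mean of PCTR3 and RCTR3 in 17 of the 51 members (33.3%), against 22.0% of all components with several transcripts, with a median move of 5.81 points against 4.32. These sets were not matched for level. In comp132509_c0, with a vehicle mean of 3.58 TPM, the share ran from 0% to 83.6% within vehicle alone. Whether shares moved more in the members was not tested. Between PCTR3 and RCTR3, the share of the transcript with the highest mean differed in 0 of the 51 members and in 0% of 7172 components (limma, adjusted p under 0.05). At an unadjusted p under 0.05 it differed in 3 members and in 3.83% of the components.

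The largest move among members with a vehicle mean of at least 5 TPM was in comp136368_c3, which has 9 transcripts. The component summed to 19.0 ± 3.73 TPM in vehicle and 25.5 ± 4.94 with MCTR3, while the PCTR3 mean was 42.3 ± 1.53 TPM and the RCTR3 mean 47.1 ± 10.9 TPM (SD, n = 4). Its transcript comp136368_c3_seq5 held 8.21, 1.12, 6.71 and 3.79 TPM in vehicle and 16.8, 10.0, 12.4 and 6.33 TPM with MCTR3. It held 30.1, 30.1, 23.1 and 28.9 TPM with PCTR3 and 36.0, 38.3, 24.5 and 29.8 TPM with RCTR3. Every PCTR3 and RCTR3 library lay above every vehicle and MCTR3 library. This transcript carried 97.7% of the gain of the component, and its share was 24.7% ± 14.2 in vehicle and 43.8% ± 10.6 with MCTR3 (SD, n = 4). That share was 66.3% ± 6.86 for PCTR3 and 68.6% ± 5.27 for RCTR3 (SD, n = 4). The transcript that led in vehicle, comp136368_c3_seq6, stood at 7.49 ± 0.864 TPM in vehicle and 7.43 ± 0.690 TPM with MCTR3, against 5.20 ± 1.34 TPM with PCTR3 and 5.69 ± 0.776 TPM with RCTR3.

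In comp142406_c0, with the next largest move, 1 of 2 transcripts carried 95.6% of the gain in mean TPM, though not in every library. comp142406_c0_seq1 held 6.29, 6.26, 5.89 and 3.54 TPM in vehicle and 3.97, 10.4, 6.50 and 6.89 TPM with MCTR3. It held 19.7, 35.4, 12.3 and 14.9 TPM with PCTR3 and 27.4, 19.0, 27.3 and 22.4 TPM with RCTR3, all above the vehicle and MCTR3 libraries. The other transcript, comp142406_c0_seq3, had means of 6.99 ± 1.14 TPM in vehicle and 6.93 ± 2.57 TPM with MCTR3, against 7.64 ± 4.06 TPM with PCTR3 and 7.90 ± 2.59 TPM with RCTR3. It held 6.55, 4.10, 13.5 and 6.42 TPM with PCTR3 and 5.67, 11.6, 7.27 and 7.01 TPM with RCTR3. In PCTR3 replicate 3 it was thus the higher of the 2 transcripts. There comp142406_c0_seq1 held 47.6% of the component, within its vehicle range of 36.7% to 48.5%. The share of comp142406_c0_seq3 is the remainder of that of comp142406_c0_seq1, which was 43.6% ± 5.40 in vehicle, and 70.5% ± 17.4 with PCTR3 against 74.99% ± 9.09 with RCTR3. Transcripts of 1 component share sequence, and the error of dividing reads among them is not known here.

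**Figure D5:**
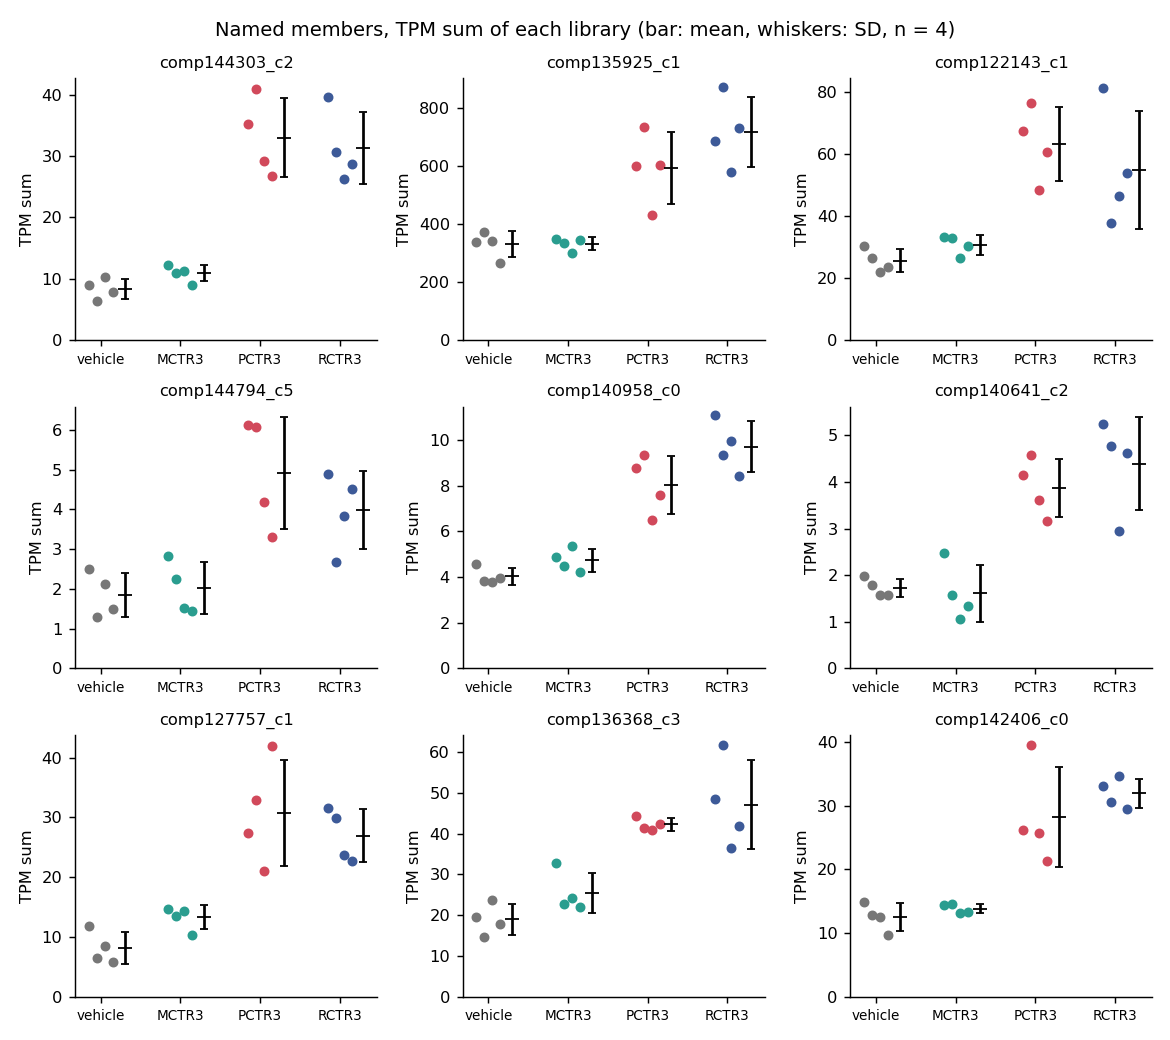
Points give the TPM sum of each library (y axis, starting at 0) for the 9 named members in the 4 groups (x axis), with the mean and SD of each group beside them (n = 4). In each panel every PCTR3 and RCTR3 library lies above every vehicle library, and the MCTR3 libraries overlap with the vehicle range in all panels, with some below it in comp140641_c2.

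The assembler number, the identifier before the suffix c, was shared with at least 1 other component for 45 of the 140 members (32.1%, against 17.5% of all components), and no 2 members shared one. The 56 tested companions of these members had a median rise of 0.17 with PCTR3 and 0.19 with RCTR3. A rise above 0 with both compounds was seen in 37 of the 56 (66.1%, against 46.2% of all tested components), and 1 of the 56 (1.79%) reached the required rise with both, against 1.19% of all tested components. Parts of the same assembled gene and related genes cannot be told apart from the identifiers.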

How the data were processed

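Polyadenylated RNA was sequenced from 16 samples, 4 in each of 4 groups taken from the sample titles. The authors deposited log2 TPM for 44857 transcripts, per the file name and header. Kallisto and sleuth are named, without versions or roles, per the submitters' processing notes. The transcript set is not given in the labels. The floor of -34.92 in the deposited log2 values was read as 0 TPM. No pair of the 120 pairs of libraries was identical.

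TPM was summed per component and analysed as log2(sum + 1), which understates changes of low components. Components with at least 1 TPM in at least 4 libraries (15762, all 140 members among them) were fitted with limma 3.58.1 in R 4.3.3: 4 group means, all 16 libraries, a trend of variance with level, two-sided, Benjamini-Hochberg over all tested components. For shares, log2((leading transcript + 0.5)/(other transcripts + 0.5)) was fitted likewise. The fits were run on simulated data in which components varied independently. The members moved together between libraries, so nothing is read from that run. Members, lists and tests were chosen with earlier results of these data known. Named members were those with the largest mean rise, the highest vehicle mean, the 2 lowest p in each direction between PCTR3 and RCTR3, the lowest and highest MCTR3 difference, and the 2 largest share changes at 5 TPM or more in vehicle. Pathway and cell type lists need gene names and were not used here.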

Additional observations from a re-analysis of the deposited data

How the results depend on the processing

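The number of members depended on the settings of the rule: 91 with a pseudocount of 2, 55 with a required rise of 1, 362 with 0.6, 83 with a vehicle minimum of 5 TPM, and 232 after rescaling to a common TPM sum, of which 127 were among the 140. That rescaling put the median difference of all tested components from vehicle at 0.12 with PCTR3 and 0.15 with RCTR3, from 0.01 for each. The members' median lay 0.96 and 1.02 above the median of all components, as with the deposited scaling. Rescaling shifts members and all components of a library nearly alike, so this distance could hardly change, and nothing is read from it. Under this rescaling and under median centring all 140 members were called higher with each compound. The same libraries chose the members, so nothing is read from that. Over all components, the calls for PCTR3 went from 3019 higher and 3165 lower to 5053 and 1633 after rescaling. For RCTR3 they went from 3418 and 3630 to 5989 and 1771. Leaving out 1 library gave 101 to 172 members, a median PCTR3 minus RCTR3 difference of -0.07 to 0.01, and a median MCTR3 position of 0.19 to 0.30. It gave 1179 to 3855 components between MCTR3 and PCTR3 (2984 with all libraries) and 0 to 1 between MCTR3 and vehicle. The call against vehicle came without PCTR3 replicate 3 and was no member. Between PCTR3 and RCTR3 all settings gave 0 calls. With the replicate number as a block there were 0 calls between PCTR3 and RCTR3 and 6097 and 6940 calls against vehicle with PCTR3 and RCTR3 (6184 and 7048 without it). No label says that same-numbered libraries shared more than a number. Their deviations correlated by more than 0.1 in 8 of 24 pairs (range -0.24 to 0.37). Differently numbered libraries were not compared in this way, so shared handling was not tested. No library of a named member, and no group of the members' summed values, stood apart by Dixon's test in the 44 groups of 4 examined. With 4 values that test flags only a very wide gap, so it cannot show that no library stood apart. Vehicle replicate 4 was not flagged in the summed values, although it was the lowest of its group in 83 members. Nothing is therefore read from the absence of flags. The unknown read depth limits the precision of the rarer members.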
